A study of Amphimedon queenslandica with 43 samples.

Results

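Larvae of the demosponge Amphimedon queenslandica kept under constant light were set against larvae kept under a natural day-night regime, both sampled at 9 hours post emergence (hpe). The 15 larvae were taken by their sample titles, 7 from constant light and 8 from day-night, out of 43 in the whole series. The study's title asks how light sensing and chemical sensing act together on settlement, and transcripts were measured in single larvae at 2 ages, 1 and 9 hpe. The other 28 larvae were 7 of each regime at 1 hpe and 7 constant-dark larvae at 9 hpe, and they serve below to place the values of the 15.

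Every larva came from a collection of 30 minutes that started at 11 am, and was in its regime by 0.5 hpe. At 9 hpe the larvae had therefore spent at least 8.5 hours in it, and 9 hpe fell in the evening. Constant-light larvae sat under a full-spectrum fluorescent tube. Constant-dark larvae sat under a neutral density filter that let through 6.6% of ambient daylight, so they were dim rather than lightless. Day-night larvae had ambient light. The constant-light and day-night groups thus differ in lamp as well as in the hours of light, and these cannot be told apart. Between 1 and 9 hpe, age, time in the regime and hour of the day change together, and these cannot be told apart either. All larvae swam in filtered sea water.

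Sponge larvae swim for hours before they can settle and metamorphose. The larva of this species steers by light with a ring of pigmented, long-ciliated cells at its posterior end, and it does so without opsins, the light receptors of most animal eyes. Cryptochromes, blue-light proteins related to DNA repair enzymes, are held to be its light receptors. The files do not pair the transcript models with gene names, and the reference table matched none of their identifiers, so no model below carries a gene name or a function, and no sequence is shown.

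The libraries were made by CEL-Seq2, which tags the 3' ends of transcripts. Total counts ran from 2660350 to 3677302 in constant-light larvae and from 1890954 to 3342040 in day-night larvae at 9 hpe. The ratio of means was 1.29. The means of log10 totals differed by 0.114 (two-sided exact permutation test, p = 0.00730 and adjusted p = 0.0146 over 4 single-value tests). Levels are given as CPM, counts scaled to a common library size with TMM factors. A whole larva was sequenced, so fewer cells of a type and less RNA per cell cannot be told apart.

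Some larvae resembled each other across regimes and ages. On the second principal component of log2 CPM, 8 larvae lay at or below -38.9 and all others at or above -12.1. Constant-light replicates 2, 3, 5 and 7 at 9 hpe were among the 8, and none of the day-night larvae was. The labels name no parent, so shared parentage was not tested. Counts of called models are given with and without these 8 larvae. The 7 models described one by one were chosen with them included, and kept their calls at 9 hpe without them.

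At 9 hpe, 688 of 14188 tested models differed between constant-light and day-night larvae (edgeR quasi-likelihood F test, adjusted p below 0.05), which is 4.85% of the models tested. Of these, 408 were higher in constant light (2.88% of all tested) and 280 were lower (1.97%). A fit on the 15 larvae alone called 467, with 233 higher and 234 lower, and DESeq2 called 969, with 498 higher and 471 lower, so the excess of higher models depended on the fit. Without the 8 larvae apart on the second component, which leaves 3 constant-light larvae, 246 models were called, 118 higher and 128 lower. Of those 246, 215 were among the 688. With clusters of alike larvae as a term the count was 349, and with no filter on low counts it was 417.

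The higher models moved by less than the lower ones. The median log2 fold change was 0.73 over the 408 higher models and -1.13 over the 280 lower models, against -0.02 over all tested models. At least a 2-fold difference was found for 135 of the 408 (33.1%) and 165 of the 280 (58.9%), which together are 2.11% of the models tested. The median levels of the 408 were 136 CPM under constant light and 84.2 CPM under day-night, and those of the 280 were 31.9 CPM under constant light and 71.9 CPM under day-night. The higher models were therefore mostly abundant transcripts with modest differences, and the lower models were scarcer transcripts with wider ones. A call needs a wider difference at a lower level, and the sizes in the 2 lists were not matched for abundance.

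Calls were more frequent among abundant models. Of 5 bins of equal size, the least abundant, with a median of 2.94 CPM, had 13 higher and 31 lower models, so that 1.55% were called. The most abundant bin, with a median of 173 CPM, had 266 higher and 79 lower models, and 12.2% were called. The median size of a called difference was 2.18 on the log2 scale in the least abundant bin and 0.65 in the most abundant one. Called differences were thus wider among scarce models, but a scarce model needs a wider difference to be called. The sizes therefore follow at least in part from the threshold. Of the 5 bins the top one was the only one in which higher models outnumbered lower ones.

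**Figure D1:**
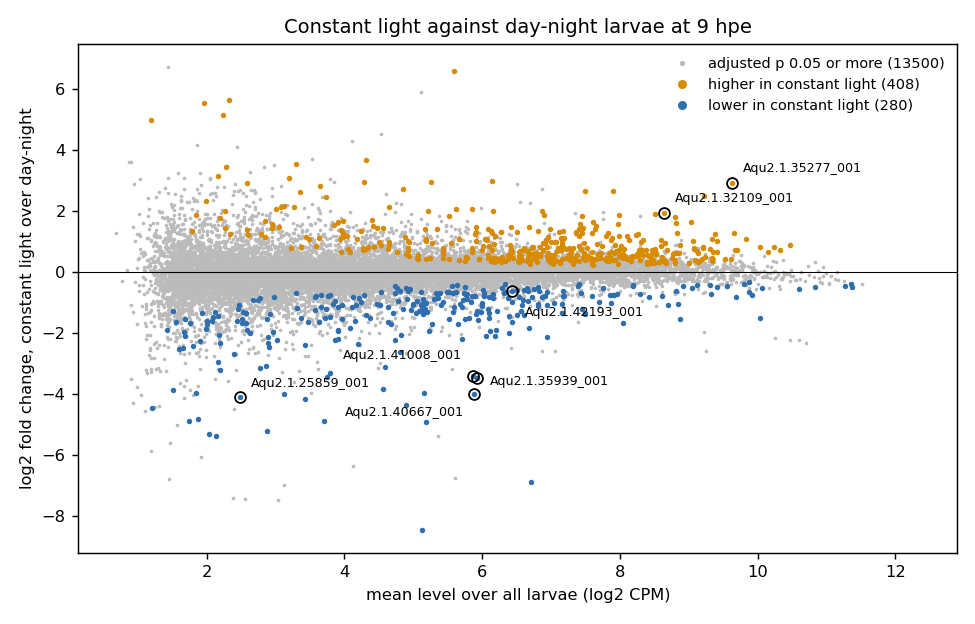
Log2 fold change of constant light over day-night larvae at 9 hpe (y axis) against the mean level over all 43 larvae in log2 CPM (x axis), 1 point per tested model. The 408 higher models crowd at high levels with small differences, the 280 lower models spread over all levels, and the 7 models described one by one are circled.

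In 177 of all tested models (1.25%), every constant-light larva lay on one side of every day-night larva, above in 66 (0.465%) and below in 111 (0.782%). Among the called models this held for 57 of the 408 higher ones and 91 of the 280 lower ones, together 1.04% of the models tested. Without constant-light replicate 7, 461 of the 688 models remained called, and without constant-light replicate 2, 505 did. Called in the same direction under all of 26 alternative analyses, leaving aside the one without models near the upper count limit, were 67 of the 408 and 71 of the 280. The median log2 fold changes of those were 1.08 and -1.30, and 24 of the 67 and 49 of the 71 had no overlap between groups.

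The models described one by one came from the called models without overlap and with at least 20 CPM in the higher group, 55 higher and 77 lower. In each direction they were the widest at 9 hpe (Aqu2.1.35277_001, Aqu2.1.32109_001, Aqu2.1.25859_001 and Aqu2.1.40667_001), the widest in the difference between ages (which added Aqu2.1.35939_001) and the widest of those also called at 1 hpe (Aqu2.1.41008_001 and Aqu2.1.42193_001).

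Over all 688 called models the log2 fold change ran from -8.44 to 6.59. Of those without overlap and with at least 20 CPM in the higher group, Aqu2.1.35277_001 had the widest rise. Its level in constant-light larvae at 9 hpe had a lowest value of 276, a median of 783 and a highest value of 936 CPM, against 41.3, 82.6 and 180 CPM in day-night larvae. Every constant-light larva stood above every day-night larva, and constant-light replicate 5 was the lowest of its group. The log2 fold change was 2.93 ± 0.31 SE, or 7.63-fold (edgeR adjusted p = 1.77e-08). Constant-dark larvae at 9 hpe spread from 56.4 to 524 CPM and so overlapped both groups. At 1 hpe the median was 1091 CPM under constant light, 1083 CPM under constant dark and 1369 CPM under day-night. The model was thus abundant in every regime at 1 hpe, and at 9 hpe constant-light larvae were the nearest to that level.

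Within the same choice, Aqu2.1.32109_001 had the next widest rise. Constant-light larvae at 9 hpe held 218 to 331 CPM with a median of 279, and day-night larvae held 53.5 to 83.3 CPM with a median of 70.5. The spread within each group was small beside the gap between them. The log2 fold change was 1.93 ± 0.18 SE, or 3.82-fold (edgeR adjusted p = 1.85e-09). Constant-dark larvae at 9 hpe held 25.4 to 55.1 CPM, mostly below the day-night larvae, and the difference of constant dark from day-night was -0.88 on the log2 scale (edgeR adjusted p = 0.00297). The order at 9 hpe was therefore constant light, day-night, constant dark. At 1 hpe constant-light larvae had a median of 561 CPM and day-night larvae one of 883 CPM, the other way round from 9 hpe, and that difference of -0.69 ± 0.18 SE did not pass (edgeR adjusted p = 0.0584).

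Of the called models without overlap and with at least 20 CPM in the higher group, Aqu2.1.25859_001 had the widest fall. Constant-light larvae at 9 hpe held 0 to 3.34 CPM with a median of 0.849, and day-night larvae held 13.6 to 40.8 CPM with a median of 21.9. The log2 fold change was -4.11 ± 0.72 SE, or 17.2-fold lower (edgeR adjusted p = 0.000204), and the groups did not overlap. Constant-dark larvae at 9 hpe held at most 2.28 CPM, and the highest level at 1 hpe in any regime was 0.967 CPM. Day-night larvae at 9 hpe were thus the only group of the 6 in which every larva had more than a few CPM of this model. At 1 hpe the difference was -1.57 ± 1.03 SE and did not pass (edgeR adjusted p = 0.542). The interaction, -2.54 ± 1.87 SE, was not called (edgeR adjusted p = 0.571). With levels this low at 1 hpe, the values cannot show whether the difference was already there.

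Aqu2.1.40667_001 set constant light apart from both other regimes. Its level at 9 hpe was 3.74 to 21.2 CPM with a median of 8.62 in constant-light larvae, against 80.6 to 250 CPM with a median of 143 in constant-dark larvae and 67.6 to 195 CPM with a median of 156 in day-night larvae. Constant-light larvae lay below all 15 larvae of the other regimes. The log2 fold change against day-night was -3.99 ± 0.46 SE, or 15.9-fold lower (edgeR adjusted p = 1.36e-07), and against constant dark it was -3.95 ± 0.46 SE (adjusted p = 3.11e-07). At 1 hpe no larva of any regime was above 24.9 CPM, and the median was 11.8 CPM under constant light, 6.76 CPM under constant dark and 14.5 CPM under day-night. Constant-light larvae at 9 hpe therefore held this model within the range of 1 hpe larvae.

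**Figure D2:**
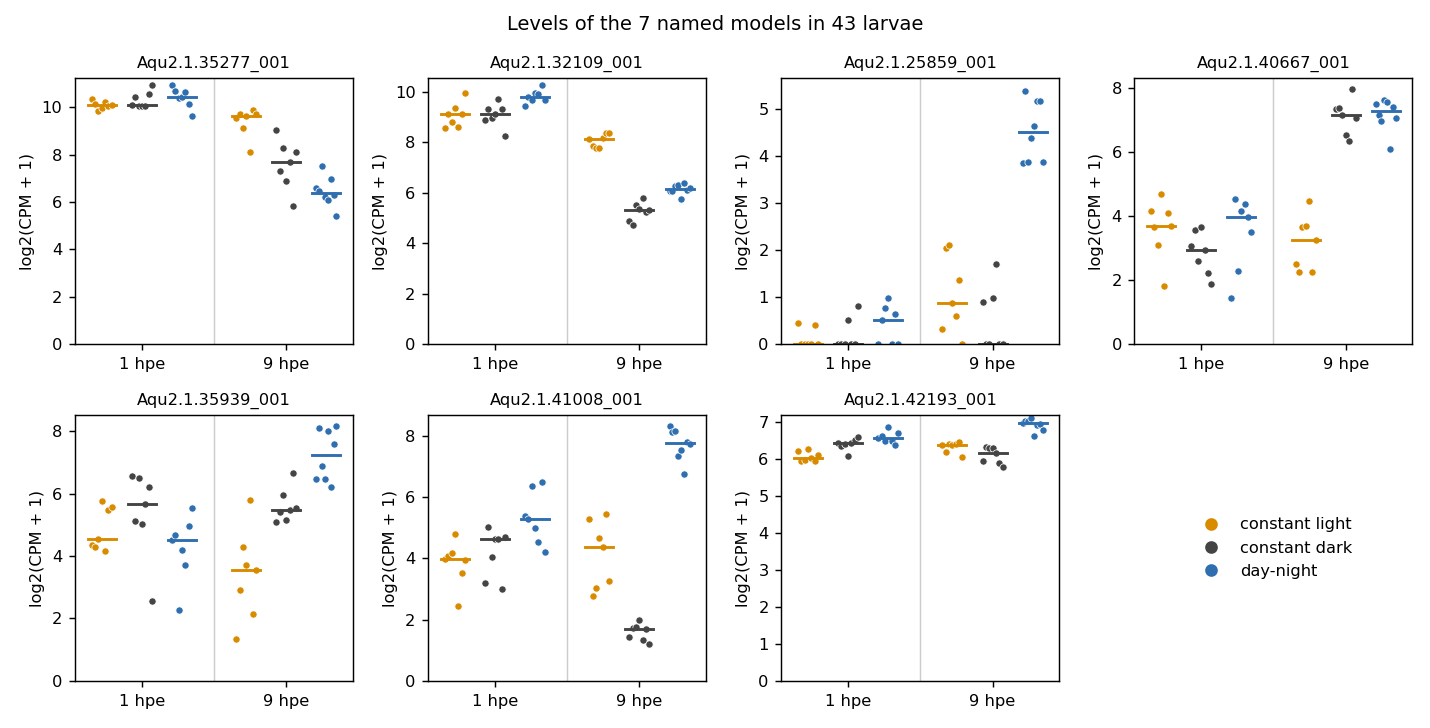
Level of each of the 7 models in all 43 larvae as log2(CPM + 1), with 1 hpe on the left and 9 hpe on the right of each panel. Points are larvae, bars are group medians, and at 9 hpe the 7 constant-light larvae do not overlap the 8 day-night larvae in any panel.

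To ask whether the difference was also there at 1 hpe, earlier in the day and soon after the regimes began, other larvae were read, 7 per regime. Of 14188 models, 124 differed there (0.874%), with 20 higher (0.141%) and 104 lower (0.733%) under constant light. The count was 66 without the 8 larvae apart, 72 without day-night replicate 4 and 82 without day-night replicate 5. Of the 408 models higher at 9 hpe, edgeR called 0 higher and 4 lower at 1 hpe, and at an unadjusted p below 0.05 there were 29 higher and 35 lower. DESeq2 called 1 of the 408 higher and 7 lower, and limma voom called 0 higher and 6 lower. Of the 280 lower at 9 hpe, edgeR called 0 higher and 8 lower at 1 hpe, with 19 higher and 29 lower at an unadjusted p below 0.05. DESeq2 called 0 of the 280 higher and 11 lower, and limma voom called 0 higher and 8 lower. Over all 14188 models, 1931 had an unadjusted p below 0.05 at 1 hpe. The median log2 fold change at 1 hpe was 0.02 over the 408 and 0.00451 over the 280, against -0.00157 over all models. The direction at 1 hpe was that of 9 hpe for 54.9% of the 408 and 49.3% of the 280, against 52.1% of all models. The medians and directions of both lists at 1 hpe were near those of all models, while 8 of the 280 were called lower at both ages, against 104 of 14188 called lower at 1 hpe over all models.

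The difference between the 2 ages was also tested as such, and this test shares the 9 hpe larvae with the comparison above. It does not separate age from time in the regime or hour of the day. The effect of constant light differed between 9 and 1 hpe for 368 models (2.59%), more positive at 9 hpe for 221 (1.56%) and more negative for 147 (1.04%) (edgeR quasi-likelihood F test of the interaction). Without the 8 larvae apart, 131 were called. Of the 7 models described one by one, Aqu2.1.35277_001 had an interaction of 3.28 ± 0.42 SE on the log2 scale (edgeR adjusted p = 4.05e-06), and Aqu2.1.32109_001 had one of 2.62 ± 0.26 SE (adjusted p = 1.96e-08). The highest counts of these models, 5649 and 4386, fell at 1 hpe within reach of the upper limit of 8192, so their levels at 1 hpe may be understated. For Aqu2.1.40667_001 the interaction was -4.04 ± 0.61 SE (adjusted p = 8.55e-05).

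Within the same choice of models, Aqu2.1.35939_001 had the next most negative interaction, -3.98 ± 0.77 SE (edgeR adjusted p = 0.00181). At 9 hpe it stood at 1.54 to 54.5 CPM with a median of 10.7 in constant-light larvae, 32.8 to 101 CPM with a median of 43.3 in constant-dark larvae and 72.4 to 288 CPM with a median of 156 in day-night larvae. Its difference of constant light from day-night was -3.48 ± 0.57 SE (edgeR adjusted p = 8.04e-05). Constant-light replicate 5 was far above the other constant-light larvae but below all day-night larvae, and without it the difference was -4.30. At 1 hpe the median was 22.5 CPM under constant light, 50.1 CPM under constant dark and 21.6 CPM under day-night.

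**Figure D3:**
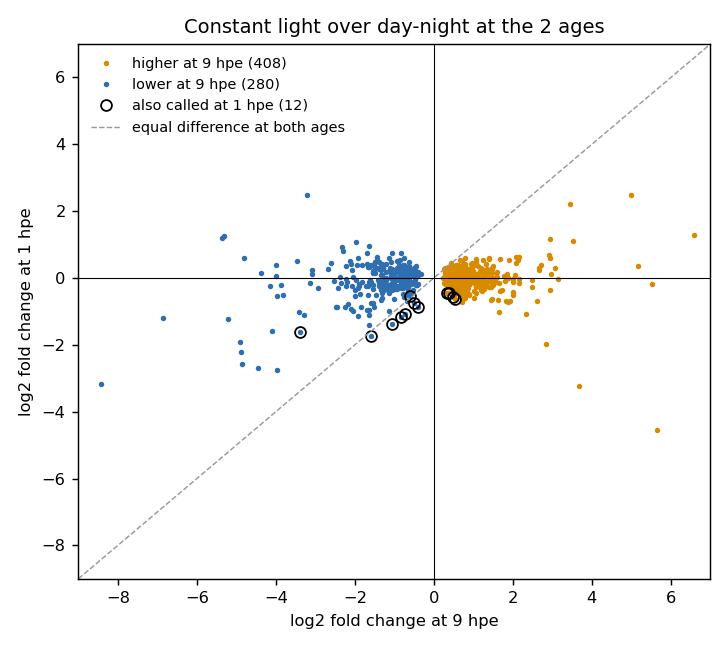
Log2 fold change of constant light over day-night at 1 hpe (y axis) against that at 9 hpe (x axis) for the 688 models called at 9 hpe, read in different larvae at each age. Most points lie along the horizontal line of no difference at 1 hpe, and the models also called at 1 hpe are circled.

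Some models differed at both ages in the same direction. Among the 55 higher and 77 lower called models without overlap at 9 hpe and with at least 20 CPM in the higher group, 3 were called in the same direction at 1 hpe, all of them lower, where 0.733% of all tested models were called lower. Aqu2.1.41008_001 was the widest of these. It stood at 5.89 to 42.1 CPM with a median of 19.6 in constant-light larvae at 9 hpe and 105 to 317 CPM with a median of 217 in day-night larvae, which on the log2 scale is a difference of -3.39 ± 0.42 SE (edgeR adjusted p = 6.45e-07). At 1 hpe it was 4.38 to 26.4 CPM under constant light against 17.4 to 89.1 CPM under day-night, a difference of -1.63 ± 0.40 SE (adjusted p = 0.0352). The groups overlapped at 1 hpe, and that call was lost under 12 of 40 alternatives, with adjusted p from 0.00850 to 0.136. In constant-dark larvae at 9 hpe the model was lower still, at 1.28 to 2.94 CPM, and constant light stood 3.32 ± 0.47 SE above constant dark (edgeR adjusted p = 1.85e-05).

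Aqu2.1.42193_001 had a small difference of like size at both ages. It stood at 65.3 to 87.0 CPM with a median of 81.6 in constant-light larvae at 9 hpe and 97.1 to 137 CPM with a median of 123 in day-night larvae, which on the log2 scale is a difference of -0.61 ± 0.09 SE (edgeR adjusted p = 3.62e-05). At 1 hpe it stood at 60.3 to 75.7 CPM under constant light against 82.1 to 114 CPM under day-night, a difference of -0.52 ± 0.10 SE (adjusted p = 0.00274). The groups did not overlap at either age. The call at 1 hpe was lost with no filter on low counts (adjusted p = 0.0906), and adjusted p ran down to 3.28e-05 under the other alternatives. The interaction was -0.08 ± 0.13 SE (edgeR adjusted p = 0.842). Constant-dark larvae at 9 hpe stood at 53.6 to 78.0 CPM, also below day-night, by -0.83 on the log2 scale (edgeR adjusted p = 4.08e-08). The difference of constant light from constant dark was 0.22 ± 0.10 SE and did not pass (edgeR adjusted p = 0.319). The lower level was thus shared by both constant regimes at 9 hpe.

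The counts that the called models held in each larva show their joint size. The 408 higher models, chosen on the 15 larvae at 9 hpe, held 6.69% to 9.11% of the counts of constant-light larvae with a median of 8.16%, and 4.58% to 5.95% of those of day-night larvae with a median of 4.87%. That these groups part follows from the choice. The other larvae were outside the comparison that chose the models, but shared its filter and its estimate of the spread. Among them, the 408 held 5.48% to 7.20% in constant dark at 9 hpe. At 1 hpe they held 8.51% to 9.57% in constant light, 8.88% to 10.2% in constant dark and 8.59% to 9.65% in day-night. The median of constant-light larvae at 9 hpe, in which these models had been chosen as high, was below the lowest of the 1 hpe larvae, and their range overlapped that of the 1 hpe larvae.

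The 280 lower models held 3.03% to 3.51% of counts in constant-light larvae at 9 hpe and 5.52% to 6.42% in day-night larvae. In the larvae outside that comparison they held 3.35% to 4.01% in constant dark at 9 hpe. At 1 hpe they held 2.98% to 3.47% in constant light, 2.78% to 3.29% in constant dark and 3.06% to 3.46% in day-night. No larva of another group reached the lowest of the 8 day-night larvae at 9 hpe, the larvae in which these models had been chosen as high, so this is a description only.

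**Figure D4:**
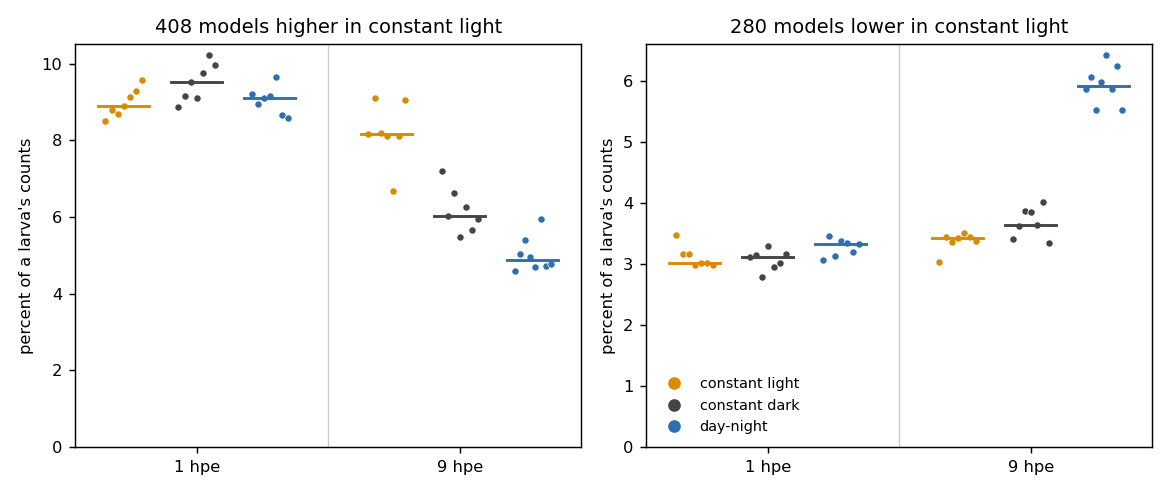
Percent of each larva's total counts held by the 408 models higher in constant light (left) and by the 280 lower ones (right), with larvae as points and group medians as bars. The right panel shows the 8 day-night larvae at 9 hpe, at 5.52% or more, above all other larvae, and the left panel shows constant-light larvae at 9 hpe overlapping the 1 hpe larvae; the models were chosen on the 15 larvae compared.

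Constant-dark larvae at 9 hpe stood differently toward the 2 lists. Over the 408, the median difference of constant light from constant dark was 0.42 and that of constant dark from day-night was 0.26 on the log2 scale, so constant dark lay between. Over the 280 these medians were -0.18 and -0.82, so constant dark lay near constant light. Constant dark was nearer to day-night than to constant light for 63.5% of the 408, 27.1% of the 280 and 53.4% of all tested models. Each of these comparisons shares larvae with the one that chose the lists, and day-night larvae at 9 hpe are extreme in them by that choice.

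An age score was taken from larvae in neither group. From the mean log2 CPM of 1169 models that rose between 1 and 9 hpe in constant-dark larvae, it takes away that of 1322 models that fell there. Constant-light larvae at 9 hpe scored -1.77 to -1.13 with a mean of -1.48 ± 0.23 (SD, n = 7), and day-night larvae scored -1.23 to -0.85 with a mean of -1.07 ± 0.12 (SD, n = 8). The difference was -0.41 (two-sided exact permutation test, p = 0.000932 and adjusted p = 0.00373). It was -0.81 with the models of the score taken at an adjusted p below 0.001 (exact permutation p = 0.000311). Without the larvae apart on the second component it was -0.35, at the smallest p that 3 against 8 larvae can give (exact permutation p = 0.00606). The models of the score stayed the same there. Of the constant-dark larvae that chose them, replicates 3, 5 and 6 at 1 hpe were among those apart, and none at 9 hpe was. Whether the score carries part of that component was not tested. The groups overlapped, since constant-light replicate 5 scored above day-night replicates 2, 3 and 6, and the other constant-light larvae scored below all day-night larvae. At 1 hpe the scores were lower in every larva, -2.46 to -2.01 in constant light and -2.86 to -2.17 in day-night. The median at 1 hpe was -2.22 in constant-light larvae and -2.54 in day-night larvae, the other way round from 9 hpe, and this difference was not tested.

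**Figure D5:**
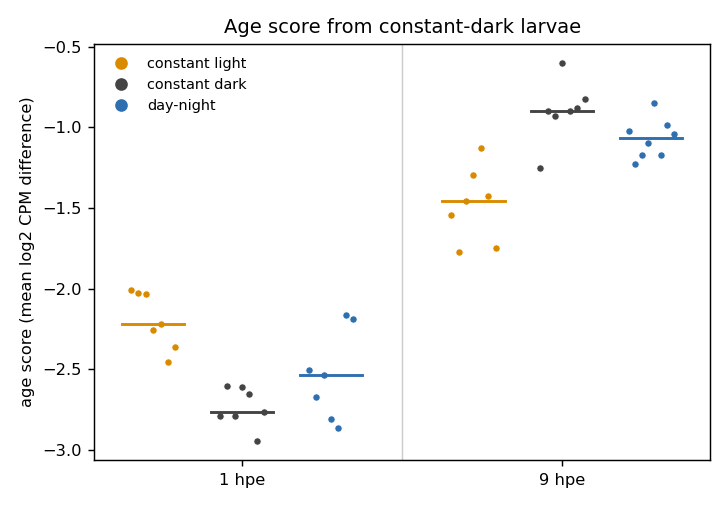
Age score of each larva (mean log2 CPM of models that rose with age in constant-dark larvae minus that of models that fell), with bars at group medians. At 9 hpe the constant-light larvae lie at -1.77 to -1.13, mostly below the day-night larvae at -1.23 to -0.85; constant-dark larvae chose the models.

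The share of counts in a larva's most abundant models also differed, read without thinning to equal depth. Constant-light libraries were the deeper ones, and whether depth bears on this share was not tested. The 100 most abundant models of a larva held 12.8% ± 1.81 of its counts in constant light (SD, n = 7) and 14.9% ± 1.04 in day-night (SD, n = 8; two-sided exact permutation test, p = 0.0179 and adjusted p = 0.0238). Without the 146 models whose counts came near the upper limit in some larva, the difference was -0.62 percentage points and did not pass (exact permutation p = 0.201). At equal depth, 19238 ± 527 models had a count in constant-light larvae and 19733 ± 624 in day-night larvae, a difference that did not pass (exact permutation p = 0.124, adjusted p = 0.124). With no thinning its sign turned, to 401 more in constant light (exact permutation p = 0.363), and without day-night replicate 5 it passed, at -663 (exact permutation p = 0.0233).

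The comparison could also be read within alike larvae. Grouping larvae by the models that varied most beyond age gave 12 clusters, of which 1 held constant-light replicates 1 and 6 and day-night replicates 4 and 7 at 9 hpe. A fit without these 4 larvae called 397 models, and 393 of them could be read in the 4. Of 212 higher models, 191 (90.1%) were also higher in the 2 constant-light larvae than in the 2 day-night larvae, with a median difference of 0.58 on the log2 scale. Of 181 lower models, 161 (89.0%) were also lower, with a median of -0.96. Over all tested models, 50.3% were higher in those 2 constant-light larvae and the median was 0.00358. The models called in the other larvae thus mostly took the same direction in these 4 larvae, which had no part in calling them. This is 1 contrast of 2 larvae against 2, in which models are not replicates, so the percentages carry no test. With group means removed instead, constant-light replicate 1 clustered with day-night replicate 4, and constant-light replicate 6 clustered separately with day-night replicate 7.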

How the data were processed

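The authors deposited raw counts per transcript model and larva, 47411 models in all, with spike-in and bacterial features left out, per the file name. Per the labels' protocols, single larvae were extracted with TRIzol and their RNA went through CEL-Seq2. Aligner, counter, genome build, annotation and handling of molecular identifiers: not given in the sources used here. A second deposited table of normalized values was not used. No pair of larvae of a group differed by as little as sampling noise (chi-square divided by its degrees of freedom was at least 11.6 in all 49 pairs). No count exceeded 8192, a value reached 23 times, so levels of the most abundant models are limited from above. Models that share 3' sequence may share reads.

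Groups came from the sample titles. Counts were filtered with filterByExpr (minimum count 10), which left 14188 models, scaled by TMM and fitted with edgeR 4.0.16 in R 4.3.3 as 1 robust quasi-likelihood model with 6 group means over all 43 larvae. Benjamini-Hochberg adjustment ran over all tested models, with a threshold of 0.05. Standard errors came from the fold change and the F statistic. Single values per larva were compared by exact two-sided permutation over the 6435 splits of 15 larvae. Equal depth means random thinning to 1890954 counts. Clusters of alike larvae came from average linkage on the 500 models most variable after age means were removed, joined at a mean correlation of 0.1.

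Named models were, among called models without overlap between groups and with a mean of at least 20 CPM in the higher group, the 2 widest in each direction at 9 hpe, in the interaction where it was called, and at 9 hpe where also called at 1 hpe in the same direction. The comparison and its lists were chosen with earlier results of these data known. The labels give no batch or parent, so p-values measure the spread between larvae. The numbers that end the sample titles run in blocks by group, except that day-night replicate 5 at 9 hpe has number 43. What these numbers stand for is not stated, and an effect of their order could not be told apart from regime. The fits were tested on simulated data. Alternatives were DESeq2 1.42.0 and its size factors, limma 3.58.1 voom, no filter and fewer larvae. Others were a replicate block, cluster terms, thinning and leaving out models near the upper limit. Models near the upper limit were those with 4096 counts or more in at least 1 larva.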

Additional observations from a re-analysis of the deposited data

Results flagged for a closer look

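Of 22 sets of values tested for a larva apart from its group, 3 were past Dixon's critical value, where chance gives about 1 in 20. Aqu2.1.35939_001 stood at 54.5 CPM in constant-light replicate 5 at 9 hpe, and the next constant-light larva was at 18.4 CPM. The 100 most abundant models held 16.8% of counts in constant-light replicate 7, with the next larva of that group at 13.3%. They held 17.2% in day-night replicate 5, with the next at 15.3%.

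The effect of constant light differed between 9 and 1 hpe, by the test of the interaction, for 4 of the models named. On the log2 scale the difference was 3.28 for Aqu2.1.35277_001, 2.62 for Aqu2.1.32109_001, -4.04 for Aqu2.1.40667_001 and -3.98 for Aqu2.1.35939_001.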

How the results depend on the processing

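All 7 named models kept their direction and call at 9 hpe under every alternative run, 26 or 27 for each, with adjusted p of at most 0.0459. They were chosen in these same larvae as called, wide and without overlap, so this follows largely from the choice. Of the 688 called models, 138 kept direction and call under all 26 alternatives, the one without models near the upper count limit left aside. The 688 models became 417 with no filter on low counts, 429 and 349 with the cluster of alike larvae as a term (from group or age means), 246 without the 8 larvae apart on the second component, 397 without the 4 larvae of the mixed cluster, and 497 (without constant-light replicate 7) to 722 when 1 larva was left out. They were 467 (233 higher, 234 lower) in a fit on the 15 larvae alone and 969 (498 and 471) with DESeq2. The 368 models of the interaction became 578 with DESeq2, 146 with no filter, 231 with the cluster from group means, 131 without the 8 larvae, 213 without the 4, and 263 to 440 without 1 larva. The 124 models at 1 hpe became 319, 40, 41 and 66 under the first 4 of these, and 72 (without day-night replicate 4) to 172 without 1 larva; the second lowest was 82, without day-night replicate 5. Some of these fits held fewer larvae or tested more models. Why the counts changed was not tested. Chosen after seeing the data were the cluster from age means, the fit without the 4 larvae, all alternatives at 1 hpe, and for the interaction the cluster terms, the fits without the 8 larvae and without models near the upper count limit, thinning, and leaving out larvae of 1 hpe.

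Larvae with the same replicate number did not deviate together, with correlations from -0.0371 to 0.0378 over 7 pairs, and 0 of 7 constant-light larvae correlated best with its own number. With a replicate block, 491, 233 and 107 models were called at 9 hpe, in the interaction and at 1 hpe.

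The difference in detected models was 401 with no thinning (exact permutation p = 0.363) and -663 to -361 without 1 larva, passing without day-night replicate 5 (exact permutation p = 0.0233). That of the 100 most abundant models was -0.62 points without models near the upper count limit (exact permutation p = 0.201) and -2.70 to -1.71 without 1 larva. The age score difference was -0.81 with its models taken at an adjusted p below 0.001, and -0.47 to -0.36 without 1 larva, and that of log10 totals was likewise 0.0980 to 0.133. Depth limits the scarcest models most.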

Other observations

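Most called models had identifiers that start with Aqu2.1, 682 of 13825 tested (4.93%), and 6 of 363 tested models with identifiers that start with TCONS were called (1.65%). The TCONS models were scarcer, with a median of 4.93 CPM against 18.6 CPM.

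Called models often had consecutive identifiers. Of 361 higher models with a tested neighbour by number, 49 (13.6%) had a neighbour that was also higher in constant light, against 571 of all 10546 models with a tested neighbour (5.41%). Of 244 lower models, 32 (13.1%) had a lower neighbour, against 382 of the 10546 (3.62%). These shares carry no test, and abundance, which also differs between called and other models, was not matched. Whether the numbers follow position in the genome is not stated in the sources used here.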
